A study of Mus musculus with 30 samples.

Results

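Mitotic cell division genes were described here across germ cells of 10 groups of mouse embryos. They were 36 genes listed by symbol for their known roles in mitosis. Of the 36, 35 had a probe set with that single symbol, and all 35 passed the filter on dim genes, among 15180 genes that passed it. Ccnb1, which encodes cyclin B1, was not analysed here. Primordial germ cells, from which eggs and sperm later form, were sorted from gonads by the GFP of an Oct4(deltaPE)-GFP transgene, and the background is given as mixed129/Sv and C57BL6J. RNA of 500 cells a sample was amplified by PCR and hybridised to Affymetrix arrays. Ring1+;Rnf2+ cells are called control here, and Ring1+;Rnf2delta cells are called Rnf2delta. Rnf2 and its paralog Ring1 encode catalytic ubiquitin ligase subunits of Polycomb repressive complex 1, and the series title names the timing of female germ cell differentiation as its question. Each sex was sampled at embryonic days E11.5, E12.5 and E13.5, with Rnf2delta sampled at E11.5 and E12.5 only, and each group had 3 arrays. The labels do not say how the Rnf2 allele was deleted, how many embryos were pooled, or whether a group's arrays hold different embryos. The p-values therefore measure only how much these samples vary, and part of that may be technical.

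Germ cells of both sexes divide by mitosis when they reach the gonad. In the female they then enter meiosis, and in the male they stop dividing. Cells enter mitosis when cyclins activate Cdk1, whose inhibitory phosphates are removed by the Cdc25 phosphatases. Kinetochores then attach chromosomes to the spindle, the spindle checkpoint holds back the anaphase-promoting complex until all are attached, and the chromosomal passenger complex corrects faulty attachments. The central spindle finally directs the cleavage that parts the daughter cells. Much of this machinery is transcribed late in the cell cycle through promoters with a CHR element, bound by the MuvB complexes, and CCAAT boxes, bound by NF-Y.

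The promoters of the members shared these letters well above the rate of promoters at large, and 4 are shown because their genes differed in opposite directions between groups while both motifs stood near the start. RefSeq promoter windows (GRCm38.p6, 250 bases before to 50 after a gene's start) were matched by symbol for 29 of the 36 members, 33 windows in all. Either strand was searched for TTTGAA or TTTAAA (CHR) and for CCAAT (NF-Y box), and overlapping matches were each counted. A CHR spelling stood in 26 of 33 windows (78.8%), against 27.6% of all 32851 windows. CCAAT stood in 27 of 33 (81.8%), against 37.4% of all, and both stood in 66.7%, against 10.7% of all. TTTGAA alone stood in 69.7%, against 17.9% of all. Within 100 bases before to 50 after the start, both stood in 60.6% of the members' windows and in 3.03% of all. Such a match is a run of letters, not evidence of binding. The windows of Mad2l1 and Nuf2 held neither motif. Those of Bub1, Cdc25b and Cenpk held CCAAT and no CHR spelling, and those of Anln, Birc5, Kif2c and Ndc80 held a CHR spelling and no CCAAT. The 4 sequences run from 120 bases before to 20 after the start, 5′ to 3′ on the gene's strand, with CHR and CCAAT matches (or their reverse complements) in capitals. They lie on the minus strand at chr10:69352893-69353032 (Cdk1), chr9:70421535-70421674 (Ccnb2), chr15:99651637-99651776 (Racgap1) and chr9:61946780-61946919 (Kif23).
Cdk1: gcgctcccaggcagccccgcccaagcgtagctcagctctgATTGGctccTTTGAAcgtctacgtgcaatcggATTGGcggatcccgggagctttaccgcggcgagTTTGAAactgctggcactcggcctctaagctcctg
Ccnb2: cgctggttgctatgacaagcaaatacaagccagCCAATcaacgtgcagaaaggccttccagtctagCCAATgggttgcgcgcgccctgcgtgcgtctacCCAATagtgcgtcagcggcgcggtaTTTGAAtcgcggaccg
Racgap1: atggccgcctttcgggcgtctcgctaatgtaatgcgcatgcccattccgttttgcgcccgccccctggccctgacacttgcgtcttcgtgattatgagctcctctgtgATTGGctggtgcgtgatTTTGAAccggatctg
Kif23: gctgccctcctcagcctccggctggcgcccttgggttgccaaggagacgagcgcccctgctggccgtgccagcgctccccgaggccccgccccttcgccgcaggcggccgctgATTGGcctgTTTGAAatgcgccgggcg

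**Figure D1:**
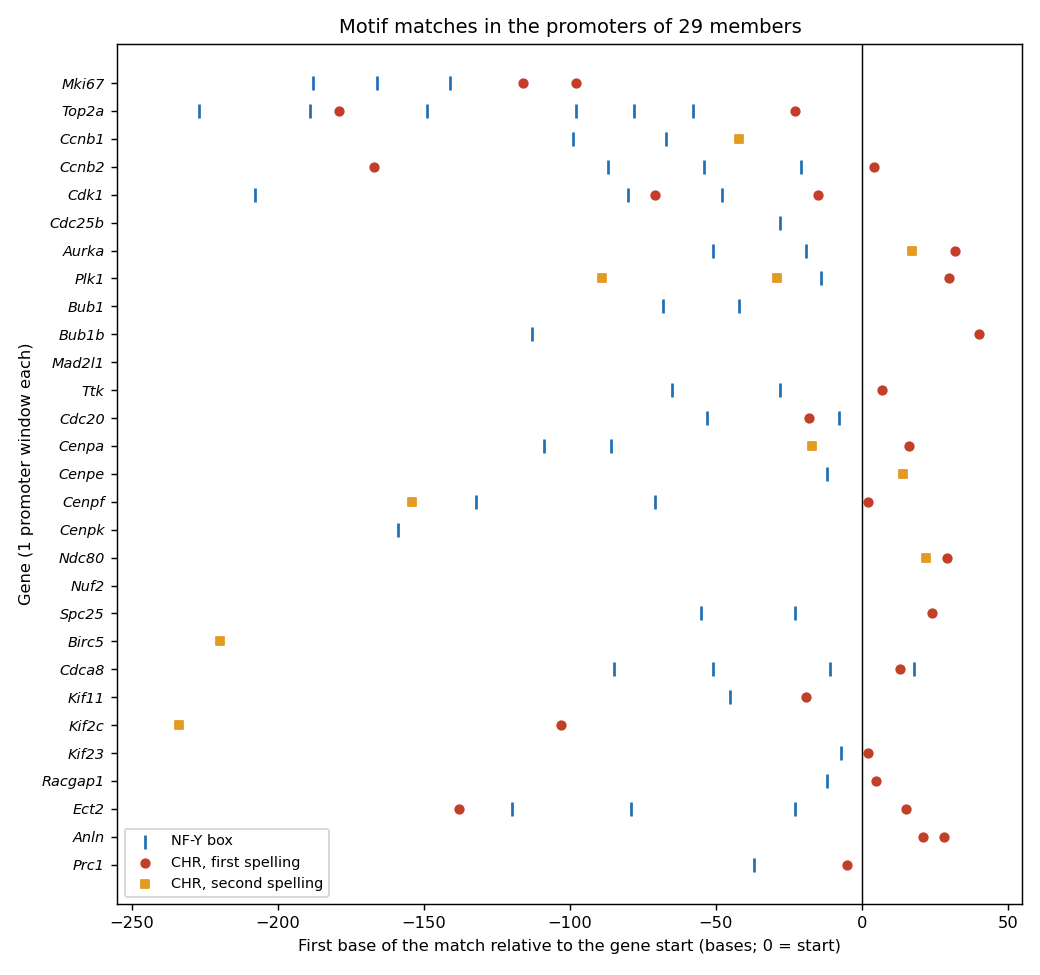
Positions of CHR spellings (circles and squares) and NF-Y boxes (bars) in 1 RefSeq promoter window of each of 29 members; the x axis is the distance of the match's first base from the gene start in bases. Boxes lie mostly upstream of the start, with exceptions such as Cdca8, which has 1 downstream of it as well.

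In Cdk1 (the mitotic kinase) and Ccnb2 (cyclin B2, one of its activators) the windows shown hold several boxes. In Ccnb2 the CHR spelling follows all of them, and in Cdk1 1 CHR spelling lies between the boxes and 1 after them. Racgap1 and Kif23 encode the 2 subunits of centralspindlin, the complex that organises the central spindle, and their windows are alike in having 1 box followed by 1 CHR spelling. These genes were chosen for both the letters and their directions, so the letters say nothing further about the directions. In control females Ccnb2 and Kif23 rose from E12.5 to E13.5, and Cdk1 and Racgap1 were lower at E13.5 than at E11.5. Racgap1 did not pass from E12.5 to E13.5, nor did Kif23 from E11.5 to E13.5.

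The sorted cells carried germ cell transcripts on every array. All 8 germ cell markers (Ddx4, Dazl and others) were measured, with a mean log2 level of 7.28 to 7.81 per array. The means were 2.27 to 2.96 for 8 supporting cell markers, 2.38 to 2.70 for 7 interstitial, 2.23 to 2.90 for 2 erythroid and 1.90 to 2.35 for 5 macrophage markers, beside array medians of 2.52 to 2.66. Of 5 endothelial markers (mean 2.76 to 3.24), Pecam1, which early germ cells are also known to express, read 6.11 to 7.45, and the other 4 (Kdr, Cdh5, Tek and Emcn) read 1.58 to 2.85. The part of Pecam1-bearing cells in the results was not tested. At E11.5 Rnf2 read 4.46 to 4.61 in control and 3.81 to 4.04 in Rnf2delta females, and 4.13 to 4.79 and 4.01 to 4.57 in males. At E12.5 it read 5.08 to 5.71 in control and 4.47 to 5.0 in Rnf2delta females, and 5.21 to 5.68 and 4.09 to 4.46 in males. The genotypes thus overlapped in E11.5 males only. Rnf2 passed the test at E12.5 only, and whether its probe set lies in the deleted stretch is not given in the sources used here. The 6 arrays of E12.5 females resembled each other less than the other 24 did. Within its group an array correlated on average at 0.964 to 0.978, against 0.983 to 0.990 elsewhere, and the upper quartile over all genes was 4.15 to 4.36 on the 3 E12.5 control female arrays, against 4.40 to 4.61 on the other 27.

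Averaged over the 35 members, the groups lay within less than 1 log2 unit of each other. In control males the mean log2 level was 6.24 ± 0.04 (SD, n = 3) at E11.5, 6.33 ± 0.08 at E12.5 and 6.30 ± 0.03 at E13.5. Control females gave 6.16 ± 0.07, 5.89 ± 0.14 and 6.11 ± 0.09 at the same stages. Rnf2delta males gave 6.32 ± 0.14 at E11.5 and 6.32 ± 0.19 at E12.5, and Rnf2delta females gave 6.25 ± 0.10 and 6.11 ± 0.08. The E12.5 control females were the lowest of the 10 groups for 19 of 35 members. How often they were the lowest over all genes was not counted. Their arrays also had the lowest upper quartiles over all genes, and the part of that in the 19 was not tested. The group means of a single member spanned 0.31 (Ttk) to 1.89 (Aurkb) log2 units, with a median span of 0.71. For Aurkb a single E12.5 control female array lay far below the others and widened this span. In bulk samples fewer cells in mitosis and less RNA per cell cannot be told apart. Of the 35 members, 8 passed no test in any of the 19 contrasts with equal weights: Mki67, Cdc25b, Mad2l1, Ttk, Spc25, Kif11, Ect2 and Anln.

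**Figure D2:**
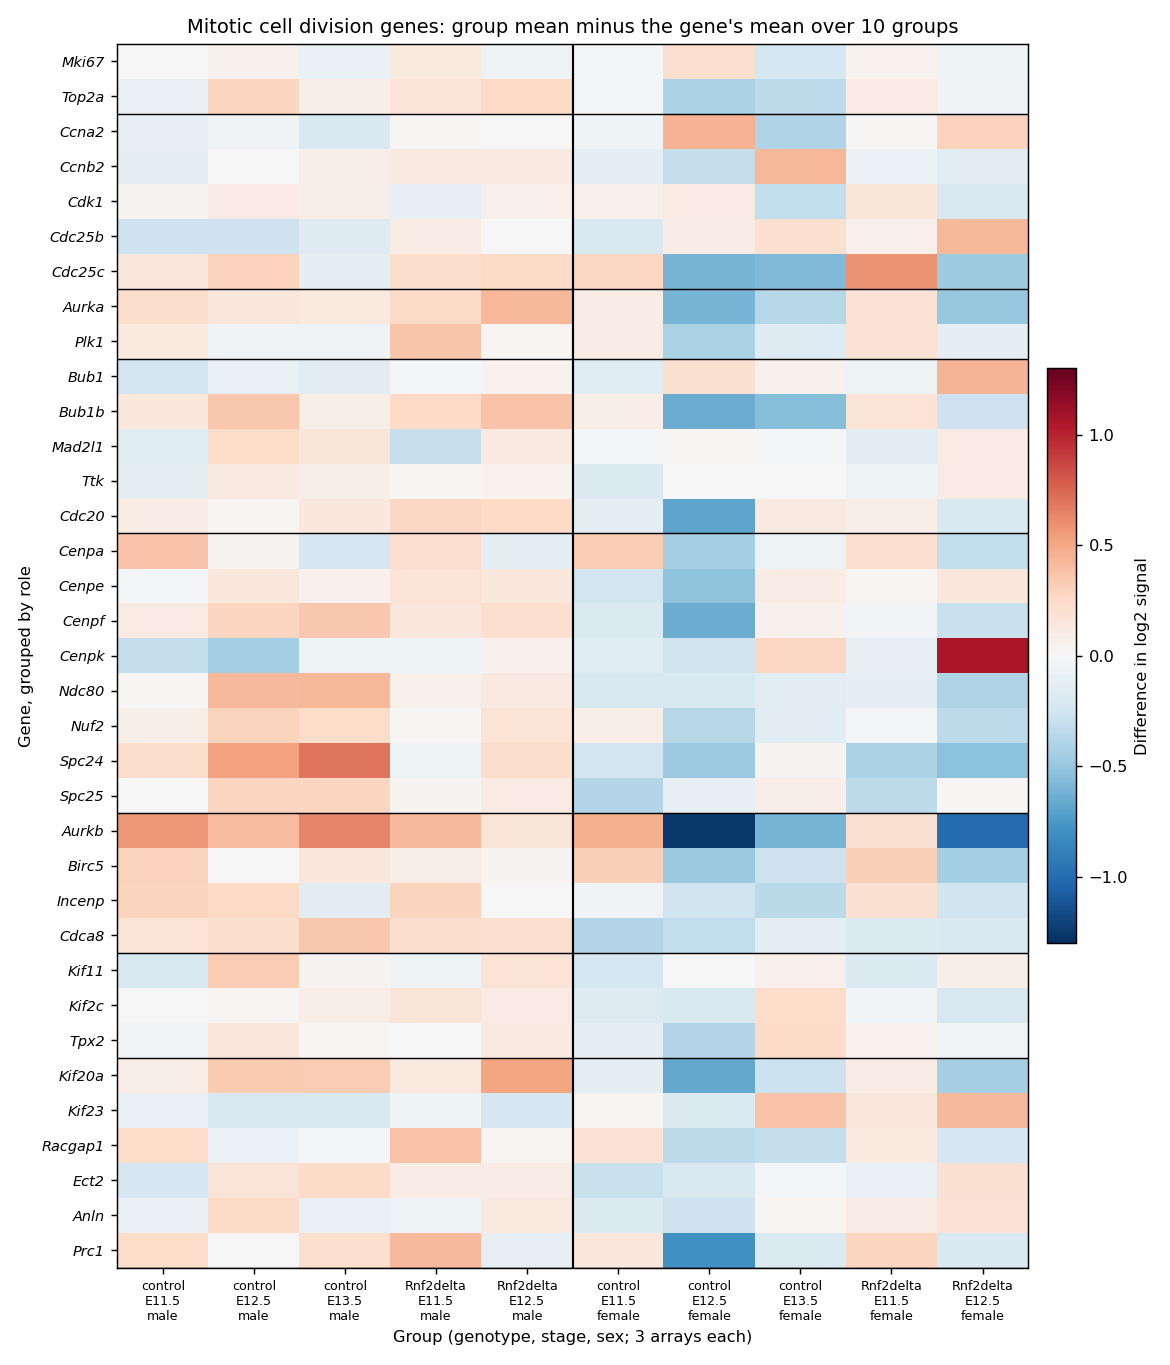
Group mean of each of 35 members minus that gene's mean over the 10 groups (difference in log2 signal, colour; 3 arrays a group), with genes in rows by role and males left of females. The E12.5 control females are the lowest group for 19 members (not counted over all genes). The mean of Aurkb falls furthest there, with a single array far below the others. Cenpk stands out as high in E12.5 Rnf2delta females.

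Mki67 and Top2a are widely used marks of cycling cells; Mki67 coats mitotic chromosomes and Top2a untangles DNA. Mki67 read 6.42, 6.12 and 6.10 in control males at E11.5, 6.41, 6.42 and 5.95 at E12.5, and 6.0, 6.01 and 6.35 at E13.5. In control females it read 6.26, 5.93 and 6.38 at E11.5, 6.26, 6.68 and 6.28 at E12.5, and 6.11, 5.52 and 6.29 at E13.5. These ranges overlapped between all stages of each sex, and Mki67 passed no test. Top2a read 8.26, 8.28 and 8.16, then 8.51, 8.67 and 8.65, then 8.35, 8.45 and 8.42 in control males of the 3 stages. In control females it read 8.38, 8.52 and 8.04, then 7.76, 8.06 and 7.93, then 8.06, 7.77 and 8.13. Males were thus above females on every array at E12.5 and E13.5, and the groups overlapped at E11.5. Rnf2delta females gave 8.41, 8.28 and 8.60 at E11.5 and 8.39, 8.25 and 8.22 at E12.5, and Rnf2delta males gave 8.72, 8.07 and 8.69, then 8.59, 8.73 and 8.45.

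In control males 1 of 35 members passed the test from E11.5 to E13.5. This was Cenpa, the histone H3 variant that marks centromeres, which read 8.40, 8.35 and 8.47 at E11.5, 8.28, 8.08 and 7.85 at E12.5, and 7.92, 7.68 and 7.88 at E13.5. The E13.5 arrays lay below the E11.5 arrays, and Cenpa fell by 0.58 ± 0.14 (SE) between them (1.5-fold, limma adjusted p = 0.0055, 0.00053 to 0.042 over the alternatives). Of all genes 5.64% were lower and 5.32% were higher over these days. With array weights 5 members passed (19.0% of all genes did), and 5 when only the compared groups were fitted (16.4% of all genes). Between E11.5 and E12.5, 0 members passed (2.62% of all genes did), while 6 had an unadjusted p under 0.05 (17.1% of members, against 15.6% of all genes). Kif11, the motor that pushes spindle poles apart, read 6.50, 6.63 and 6.48 and then 7.17, 6.99 and 7.01, a difference of 0.52 ± 0.16 (limma adjusted p = 0.074). Mad2l1, a core protein of the spindle checkpoint, differed by 0.40 ± 0.12 (limma adjusted p = 0.078). Both passed when arrays were weighted by quality, as did 8.18% of all genes. Between E12.5 and E13.5, 0 members passed (1.10% of all genes did), also with array weights, and 3 had an unadjusted p under 0.05 (8.57% of members, against 9.97% of all genes). Cdk1 read 6.37, 6.46 and 6.48, then 6.54, 6.43 and 6.55, then 6.49, 6.43 and 6.53.

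In control females the members moved in both directions at each step. From E11.5 to E12.5, 11 of 35 were lower and 1 was higher, where 14.2% of all genes were lower and 4.56% were higher. With array weights 7 members passed (10.6% of all genes did), and 4 when only the compared groups were fitted (6.10% of all genes). By role, the lower members were Cdc25c, both mitotic entry kinases (Aurka and Plk1), 2 of 5 checkpoint genes (Bub1b and Cdc20), Cenpa, 2 of 4 passenger genes (Aurkb and Birc5), and 3 of 6 genes of the central spindle and cytokinesis (Kif20a, Racgap1 and Prc1). The median change of the 35 members was -0.21 log2 units, against -0.07 over all genes, and -0.06 against -0.05 after quantile normalization, which left 8 members lower and 2 higher. The share of all genes called after quantile normalization was not counted, here or below.

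Prc1, which bundles the microtubules of the central spindle, read 6.48, 6.74 and 6.45 at E11.5 and 5.22, 5.75 and 5.91 at E12.5 in control females. Every E12.5 array was lower, and Prc1 fell by 0.93 ± 0.17 (1.91-fold, limma adjusted p = 0.00022). Cenpa went from 8.36, 8.35 and 8.39 to 7.37, 7.64 and 7.82, a fall by 0.76 ± 0.14 (limma adjusted p = 0.00028). Bub1b, the checkpoint kinase-like protein BubR1, went from 6.72, 6.26 and 6.53 to 5.70, 5.78 and 5.82. It fell by 0.74 ± 0.15 (limma adjusted p = 0.00061). Birc5, the passenger protein survivin, went from 6.96, 7.11 and 7.06 to 6.06, 6.40 and 6.29, and fell by 0.79 ± 0.17 (limma adjusted p = 0.0015). These 4 kept their call in each of 13 alternatives, including each array left out; over them the highest adjusted p was 0.033.

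Aurkb, the kinase of the passenger complex, read 6.62, 6.62 and 6.61 at E11.5 and 3.49, 5.58 and 5.63 at E12.5 in control females. All 3 later arrays were lower, and 1 of them lay far below the others. Aurkb fell by 1.72 ± 0.35 (limma adjusted p = 0.00091), and without replicate 1 of the E12.5 control females by 1.01 (limma adjusted p = 0.0098). Cdc25c, the phosphatase that activates Cdk1 at mitotic entry, read 3.04, 4.03 and 3.69 and then 2.93, 2.52 and 2.69. It fell by 0.87 ± 0.20 (limma adjusted p = 0.0021), at signals near the array medians. Aurkb and Cdc25c did not pass when only the 6 arrays compared were fitted (limma adjusted p = 0.053 and 0.061).

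Ccna2, cyclin A2 of S phase and early mitosis, was the 1 member that rose at this step in control females. It read 7.20, 7.32 and 7.29 at E11.5 and 7.69, 7.79 and 7.84 at E12.5, so the groups did not overlap. It rose by 0.51 ± 0.12 (1.42-fold, limma adjusted p = 0.0033). At E13.5 it read 6.96, 6.77 and 7.06, below both earlier stages on every array, a fall by 0.85 ± 0.12 from E12.5 (1.8-fold, limma adjusted p = 1.0e-05). The remaining 5 lower members of the first step changed by -0.70 (Aurka) to -0.51 (Plk1). Of these, Kif20a fell by 0.53, and by 0.35 without replicate 1 of the E12.5 control females (limma adjusted p = 0.21). Of the 12 calls, 7 held with each array left out in turn, and 7 members passed without replicate 1 of the E11.5 control females.

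From E12.5 to E13.5 in control females 9 members rose and 2 fell, where 17.0% of all genes rose and 4.81% fell. The E12.5 control arrays enter this step and the one before it, so the steps are not independent. After quantile normalization 7 rose and 3 fell. With array weights 7 members passed (14.4% of all genes did), and 6 when only the compared groups were fitted (9.62% of all genes). Ccnb2 read 6.94, 7.23 and 6.75 at E12.5 and 7.80, 7.59 and 7.74 at E13.5, and rose by 0.74 ± 0.13 (1.67-fold, limma adjusted p = 0.00013). Its E13.5 arrays also lay above all 3 at E11.5, which read 7.36, 6.96 and 7.13. Cdc20, the activator of the anaphase-promoting complex that the checkpoint restrains, read 7.52, 7.10 and 7.44, then 6.63, 6.92 and 6.79, then 7.84, 7.38 and 7.55. It thus fell by 0.57 ± 0.15 and then rose by 0.81 ± 0.15 (limma adjusted p = 0.0084 and 0.00032).

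The other members that rose at the later step were kinetochore genes (Cenpe, Cenpf and Cenpk), spindle genes (Kif2c and Tpx2) and central spindle genes (Kif23 and Prc1). Tpx2, which activates Aurka on the spindle, read 4.74, 4.95 and 4.66 at E12.5 and 5.45, 5.35 and 5.43 at E13.5. It rose by 0.63 ± 0.13 (limma adjusted p = 0.0010). Cenpe, the kinetochore motor, went from 4.25, 4.51 and 4.17 to 4.92, 4.83 and 5.04, and rose by 0.62 ± 0.16 (limma adjusted p = 0.0044). Cenpf, a large kinetochore protein, went from 5.79, 6.41 and 5.90 to 6.86, 6.60 and 6.73, a rise of 0.70 ± 0.19 (limma adjusted p = 0.0085, and 0.051 without replicate 1 of the E12.5 control females). In all 3 genes the E13.5 arrays lay above the E12.5 arrays. Ccna2, Ccnb2, Cdc20, Cenpe and Tpx2 kept their calls in each of 13 alternatives. Kif23 rose by 0.56 ± 0.17 (limma adjusted p = 0.014), and by 0.36 without replicate 3 of the E12.5 control females (limma adjusted p = 0.14). Prc1 rose by 0.60 ± 0.17 (limma adjusted p = 0.0092), and by 0.39 without replicate 1 of them (limma adjusted p = 0.094). Without that replicate 1, 6 members passed in place of 11.

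Cdk1 fell late in control females. It read 6.50, 6.40 and 6.50 at E11.5, 6.73, 6.24 and 6.53 at E12.5, and 6.07, 5.93 and 6.24 at E13.5. The E13.5 arrays lay below all 3 at E11.5, and only the highest of them reached the lowest at E12.5. Cdk1 fell by 0.42 ± 0.13 from E12.5 and by 0.39 ± 0.13 from E11.5 (1.31-fold; limma adjusted p = 0.016 and 0.022). Neither call held with every array left out: the later step did not pass without replicate 1 at E12.5 or replicate 2 at E13.5, with adjusted p up to 0.17, and the E11.5 comparison held with 2 of 6 arrays left out.

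Comparing E13.5 with E11.5 in control females takes no mean from the E12.5 arrays, which still enter the spread behind the p-values. Of 35 members 8 were lower and 3 were higher, where 12.0% of all genes were lower and 14.2% were higher; after quantile normalization 7 were lower and 5 were higher. The lower members were Ccna2, Cdk1, Cdc25c, Bub1b, Cenpa, Aurkb, Birc5 and Racgap1, and the higher ones were Ccnb2, Kif2c and Tpx2. Bub1b read 5.88, 5.82 and 5.90 at E13.5, below all E11.5 arrays, and was lower by -0.64 ± 0.15 (1.56-fold, limma adjusted p = 0.0013). Cdc25c read 2.98, 2.53 and 2.71, a change of -0.84 ± 0.20 (limma adjusted p = 0.0017), and Ccnb2 was higher by 0.56 ± 0.13 (limma adjusted p = 0.0014). These 3 kept their calls in each of 14 alternatives.

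Birc5 read 6.61, 6.28 and 6.51 at E13.5 in control females and was below E11.5 by -0.58 ± 0.17 (limma adjusted p = 0.013, and 0.077 without replicate 2 at E13.5). Aurkb read 5.82, 5.35 and 5.48, below every E11.5 array, a change of -1.07 ± 0.35 (2.1-fold, limma adjusted p = 0.024, with 0.00011 to 0.090 over the alternatives), which held with 1 of 6 arrays left out. Racgap1 read 5.70, 5.38 and 5.20 at E11.5, 4.70, 5.26 and 4.75 at E12.5, and 4.87, 4.81 and 5.13 at E13.5, and it was lower at E13.5 by -0.49 ± 0.16 (limma adjusted p = 0.023). In all 3 genes no E13.5 array reached the E11.5 range. The count of members depended on single arrays: it was 4 without replicate 2 of the E13.5 control females, 5 to 7 without an E11.5 control female array, 7 without replicate 3 and 8 without replicate 1 at E13.5, and 16 in the fit of all groups without the 6 E12.5 female arrays. The share of all genes was not counted in these fits, so such changes cannot be read as particular to the members.

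**Figure D3:**
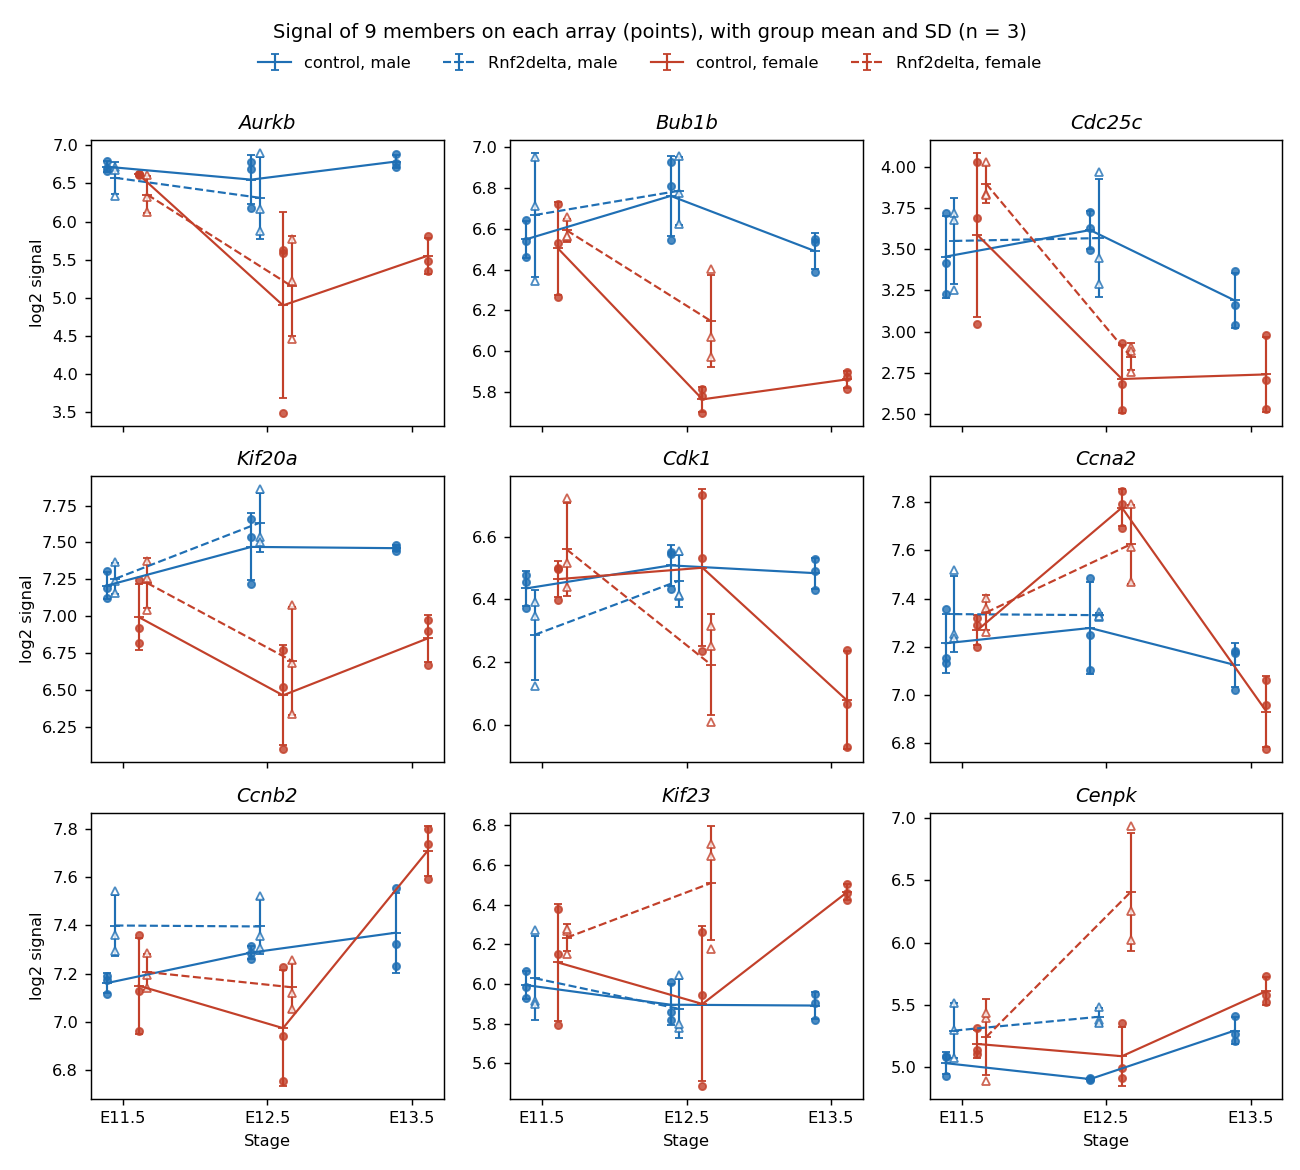
Log2 signal of 9 members by stage; points are single arrays, lines join group means and bars are SD (n = 3), with controls solid, Rnf2delta dashed, males blue and females red. Aurkb, Bub1b and Cdc25c are lower in control females after E11.5 and passed no test over the stages in control males. With equal weights the E11.5 to E13.5 change of these genes did not pass as different between the sexes. Cdc25c read 3.49 to 3.73 in E12.5 and 3.04 to 3.37 in E13.5 control males, without overlap. Kif20a is lowest in E12.5 control females, and Cdk1 and Ccna2 are lowest in E13.5 females. Ccnb2 and Kif23 are highest there among controls, and Cenpk is high in E12.5 Rnf2delta females.

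In Rnf2delta females 10 members were lower and 2 were higher at E12.5 than at E11.5, where 11.7% of all genes were lower and 6.96% were higher. The lower members were Cdk1, Cdc25c, Aurka, Bub1b, Cenpa, Aurkb, Birc5, Incenp, Kif20a and Prc1. Of these, 8 were also among the 11 lower in control females, which is 72.7% of the control list and 80% of the Rnf2delta list; no array is shared between the comparisons. Over all genes the shared calls were 50.5% and 61.6% of the lists. After quantile normalization 6 members were lower and 3 were higher, and 4 passed when only the compared groups were fitted (12% of all genes did). Cdc25c read 3.83, 3.83 and 4.03 at E11.5 and 2.91, 2.75 and 2.88 at E12.5 in Rnf2delta females, a fall by 1.05 ± 0.20 (2.07-fold, limma adjusted p = 0.00040). Birc5 read 7.07, 6.86 and 7.19 and then 5.74, 6.85 and 6.30, and fell by 0.75 ± 0.17 (limma adjusted p = 0.0026); without replicate 1 of the E12.5 Rnf2delta females it fell by 0.47 (limma adjusted p = 0.044). Cenpa went from 8.16, 8.16 and 8.45 to 7.68, 7.83 and 7.65, and fell by 0.54 ± 0.14 (limma adjusted p = 0.0065). The later arrays lay below the earlier ones in all 3 genes.

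Aurkb read 6.61, 6.13 and 6.32 and then 4.47, 5.77 and 5.22 in Rnf2delta females, and fell by 1.2 ± 0.35 (limma adjusted p = 0.016). Aurka, the centrosome kinase, went from 6.86, 6.82 and 6.88 to 5.73, 6.76 and 6.04, and fell by 0.68 ± 0.19 (limma adjusted p = 0.012). Neither passed without replicate 1 of the E12.5 Rnf2delta females, nor Aurkb without replicate 1 at E11.5, with an adjusted p of 0.14 and 0.12 as the highest over the alternatives. Cdc25c, Cenpa and Cenpk kept their calls in each of 13 alternatives, and 4 members passed without that replicate in place of 12, 5 without replicate 1 of the E11.5 Rnf2delta females. Cdk1 read 6.52, 6.44 and 6.72 at E11.5 and 6.01, 6.25 and 6.31 at E12.5, so the groups did not overlap. Its fall by 0.37 ± 0.13 (limma adjusted p = 0.040) held with 2 of 6 arrays left out. In control females over the same days Cdk1 differed by 0.04 ± 0.13 (limma adjusted p = 0.88), and the difference between these changes, -0.40, was not past the threshold (limma adjusted p = 0.39). Bub1, the checkpoint kinase, read 7.28, 7.45 and 7.60 and then 8.36, 7.54 and 7.92, with overlap. It rose by 0.50 ± 0.16 (limma adjusted p = 0.032), and by 0.29 without replicate 1 at E12.5 (limma adjusted p = 0.27); without the same replicate Kif20a fell by 0.35 in place of 0.53 (limma adjusted p = 0.22). In Rnf2delta males 0 members passed between E11.5 and E12.5 (0.547% of all genes did), 6 had an unadjusted p under 0.05 (17.1% of members, against 11.7% of all genes), and Mad2l1 passed with array weights, as did 2.92% of all genes.

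Between the sexes, members such as Bub1b and Cdc20 of the checkpoint, Cenpe and Cenpf of the kinetochore, and Kif20a and Prc1 of cytokinesis were lower in E12.5 control females than in males. At E11.5, 0 of 35 members passed, where 0.250% of all genes did, and 3 members had an unadjusted p under 0.05 (8.57% of members, against 8.44% of all genes). Cdca8, the passenger subunit borealin, gave the smallest p, with 6.57, 6.54 and 6.79 in males and 6.22, 5.93 and 6.07 in females (-0.56 ± 0.19, limma adjusted p = 0.32). At E12.5, 18 members were lower in females and 1 was higher, where 14.7% of all genes were lower and 4.31% were higher. The median female minus male difference was -0.49 log2 units over the members, against -0.06 over all genes. After quantile normalization the medians were -0.31 and -0.07, and 11 members were lower and 1 was higher. When only the compared groups were fitted 10 passed (7.58% of all genes did).

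By role, the members lower in E12.5 females were Top2a, Cdc25c, Aurka, 2 of 5 checkpoint genes (Bub1b and Cdc20), 6 of 8 kinetochore genes (Cenpa, Cenpe, Cenpf, Ndc80, Nuf2 and Spc24), all 4 passenger genes (Aurkb, Birc5, Incenp and Cdca8), Tpx2, Kif20a and Prc1. Of the 4 passenger genes only Aurkb passed with array weights or with each array left out, and the calls of Birc5, Incenp and Cdca8 each held with 2 of 6 arrays left out. Incenp (5.97, 6.12 and 5.74 in males, 5.10, 5.84 and 5.35 in females) and Cdca8 (6.94, 6.88 and 6.24 in males, 5.92, 6.38 and 6.11 in females) overlapped between the sexes. Bub1b read 6.93, 6.81 and 6.55 in males and 5.70, 5.78 and 5.82 in females, a difference of -1.0 ± 0.15 (1.99-fold, limma adjusted p = 1.8e-05). Kif20a, a cytokinesis motor, read 7.66, 7.54 and 7.22 in males and 6.10, 6.77 and 6.52 in females (-1.01 ± 0.17, limma adjusted p = 0.00012). Cenpf read 6.89, 7.10 and 6.89 in males and 5.79, 6.41 and 5.90 in females (-0.93 ± 0.19, limma adjusted p = 0.00086). No female array reached a male one in these 3 genes.

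Prc1 read 6.45, 6.55 and 6.27 in E12.5 males, above the 3 female arrays already given (-0.80 ± 0.17, limma adjusted p = 0.00092). Cdc20 read 7.62, 7.58 and 7.28 in males (-0.71 ± 0.15, limma adjusted p = 0.0012). Aurkb read 6.69, 6.78 and 6.18 in males, and its difference of -1.65 ± 0.35 (limma adjusted p = 0.0012) was -0.95 without replicate 1 of the E12.5 control females (limma adjusted p = 0.015). Each male array of these genes lay above the females. Ccna2 went the other way, with 7.48, 7.25 and 7.10 in males against the higher female values, a difference of 0.50 ± 0.12 (limma adjusted p = 0.0037). Cdk1 passed no test at this stage (-0.01 ± 0.13, limma adjusted p = 0.98).

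Of the 19 calls between sexes at E12.5, 9 held in each of 14 alternatives: Cdc25c, Aurka, Bub1b, Cdc20, Cenpe, Cenpf, Spc24, Kif20a and Prc1. Top2a differed by -0.69 ± 0.15 (limma adjusted p = 0.0015) with the probe set used, and by -0.08 (limma adjusted p = 0.79) when its second probe set, which lies near the bottom of the arrays, was averaged in. Nuf2, an arm of the Ndc80 complex, moved from -0.66 to -0.42 without replicate 3 of the E12.5 control females (limma adjusted p = 0.12). The 3 E12.5 control female arrays are among those that stood apart, and the part of that in these counts was not tested. Over 11 genes of meiotic prophase, such as Sycp3 and Dmc1, the mean log2 level was 3.84 to 4.23 on those arrays, 3.48 to 3.64 in control males of that stage and 5.04 to 5.78 in E13.5 control females; its part in the results was not tested either.

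At E13.5 5 members were lower in females and 1 was higher, against 8.37% and 7.91% of all genes; after quantile normalization 4 were lower and 2 were higher. The count was 13 with array weights (22.8% of all genes passed), 10 when only the compared groups were fitted (20.4% of all genes) and 11 without the 6 E12.5 female arrays (share of all genes not counted). The lower members were Bub1b, Kif20a, Aurkb, Ndc80 and Cdk1, and the higher one was Kif23. Bub1b read 6.55, 6.39 and 6.53 in males and 5.88, 5.82 and 5.90 in females, a difference of -0.63 ± 0.15 (1.54-fold, limma adjusted p = 0.0028), and it kept its call in each of 14 alternatives. Kif20a read 7.46, 7.48 and 7.44 in males and 6.98, 6.67 and 6.90 in females (-0.61 ± 0.17, limma adjusted p = 0.013). Aurkb read 6.88, 6.71 and 6.77 in males and 5.82, 5.35 and 5.48 in females (-1.24 ± 0.35, 2.36-fold, limma adjusted p = 0.015). All 3 genes were lower on every female array.

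Ndc80, which binds microtubules at the kinetochore, read 6.65, 6.46 and 6.46 in E13.5 males and 6.05, 5.90 and 5.92 in females (-0.57 ± 0.17, limma adjusted p = 0.019). Cdk1 read 6.49, 6.43 and 6.53 in males and 6.07, 5.93 and 6.24 in females (-0.41 ± 0.13, limma adjusted p = 0.025). Kif23 read 5.82, 5.90 and 5.95 in males and 6.42, 6.50 and 6.46 in females, a difference of 0.57 ± 0.17 (1.49-fold, limma adjusted p = 0.016). These sexes did not overlap in any of the 3 genes. Racgap1, its partner in centralspindlin, read 5.33, 5.17 and 5.17 in males against 4.87, 4.81 and 5.13 in females (-0.29 ± 0.16, limma adjusted p = 0.25). The calls of Cdk1, Ndc80 and Kif23 held with 2, 3 and 4 of 6 arrays left out. Without replicate 2 of the E13.5 control females 1 member passed, and without replicate 1 of the E13.5 control males 4 did.

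Of the 18 members lower in females at E12.5 and the 5 at E13.5, 4 were shared (Bub1b, Ndc80, Aurkb and Kif20a), which is 22.2% of the one list and 80% of the other; over all genes these shares were 30.2% and 53.1%. The test of whether the E11.5 to E13.5 change differed between sexes passed for 0 members (5.28% of all genes passed), while 5 had an unadjusted p under 0.05 (14.3% of members, against 18.0% of all genes). Bub1b came nearest (-0.58 ± 0.21, limma adjusted p = 0.10). Aurkb differed by -1.14 ± 0.50 (limma adjusted p = 0.21), and its adjusted p ranged from 0.00092 to 0.36 over the alternatives. Both passed with array weights, as did 10.6% of all genes, and Aurkb passed in the fit without the 6 E12.5 female arrays. With equal weights and all arrays, the falls in females are therefore not shown to differ from the changes in males.

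**Figure D4:**
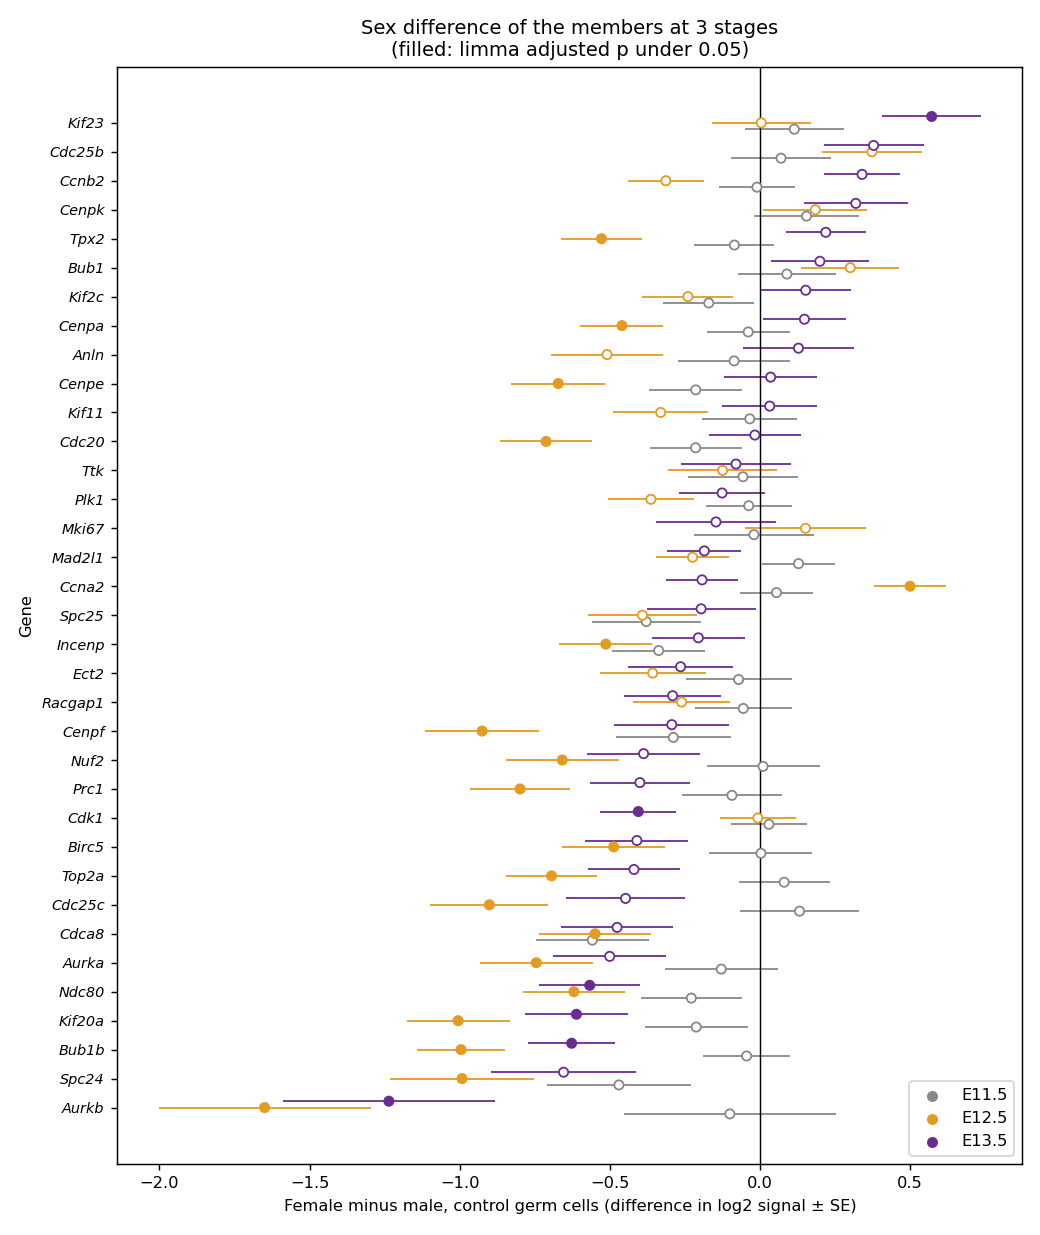
Female minus male difference in log2 signal (± SE) of 35 members in control germ cells at E11.5 (grey), E12.5 (orange) and E13.5 (purple), with filled points where the limma adjusted p was under 0.05. No member passes at E11.5, 19 pass at E12.5 and 6 at E13.5, with Aurkb at the lower end at both later stages and Kif23 at the upper end at E13.5.

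Between genotypes, members passed the test in E12.5 females and in no other comparison. At E11.5, 0 of 35 passed in females and 0 in males, where 0.553% and 0.718% of all genes did; 0 and 1 members had an unadjusted p under 0.05 (6.95% and 7.82% of all genes), and 0 passed with array weights in either sex. Cenpe gave the smallest p in E11.5 females (0.26 ± 0.16, limma adjusted p = 0.86) and Cdc25b, a phosphatase that activates Cdk1, in E11.5 males (0.37 ± 0.17, limma adjusted p = 0.58). Cdc25b read 2.37 to 2.60 in E11.5 control males, near the array medians. The 3 E11.5 Cdk1 arrays of Rnf2delta males read 6.39, 6.12 and 6.35, and those of Rnf2delta females are given above. In E12.5 males 0 passed, where 0.962% of all genes did, 1 had an unadjusted p under 0.05 (8.56% of all genes), and 0 passed with array weights. That 1 was Cenpk, a subunit of the inner kinetochore, with 4.91, 4.89 and 4.90 in controls and a group mean of 5.40 in Rnf2delta (0.50 ± 0.17, limma adjusted p = 0.27). Cdk1 read 6.41, 6.56 and 6.41 in E12.5 Rnf2delta males and Mki67 read 6.15, 6.30 and 5.96, both overlapping the control range.

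In E12.5 females 5 members were higher in Rnf2delta and 0 were lower, where 7.73% of all genes were higher and 2.16% were lower. They were Cenpk, Cenpe, Kif23, Prc1 and Cdc20. Cenpk read 4.91, 5.36 and 4.99 in controls and 6.94, 6.25 and 6.02 in Rnf2delta, so that every Rnf2delta array lay above every control array. It was higher by 1.32 ± 0.17 (2.5-fold, limma adjusted p = 1.3e-05), with each array left out as well. When only the 6 arrays compared were fitted, which also changes which arrays set the spread, its adjusted p was 0.074. Its level in E12.5 Rnf2delta females was also above that of E13.5 control females, at 5.52, 5.73 and 5.58.

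Cenpe read 4.25, 4.51 and 4.17 in E12.5 control females and 5.0, 5.08 and 4.89 in Rnf2delta, without overlap (0.68 ± 0.16, 1.6-fold, limma adjusted p = 0.0055). Kif23 read 5.95, 6.26 and 5.49 and then 6.71, 6.64 and 6.18, so the groups overlapped (0.61 ± 0.17, limma adjusted p = 0.017). Prc1 read 5.22, 5.75 and 5.91 in controls and 5.99, 6.23 and 6.45 in Rnf2delta (0.60 ± 0.17, limma adjusted p = 0.020). Cdc20 read 6.63, 6.92 and 6.79 in controls and 7.07, 7.19 and 7.54 in Rnf2delta (0.48 ± 0.15, limma adjusted p = 0.042). Prc1 and Cdc20 did not overlap between genotypes. Without replicate 3 of the E12.5 control females Kif23 was 0.40 (limma adjusted p = 0.13), and without replicate 1 of them Prc1 was 0.39 (limma adjusted p = 0.14). Cdc20 held with 2 of 6 arrays left out; it did not pass without replicates 1 or 3 of the controls or replicates 2 or 3 of Rnf2delta. The count was 3 without replicates 1 or 3 of the controls or replicates 2 or 3 of Rnf2delta. With array weights only Cenpk passed, where 1.44% of all genes were higher with and without them, and when only the compared arrays were fitted 0 members did. After quantile normalization 3 members were higher and 1 was lower.

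The other members of E12.5 females did not pass between genotypes. Cdk1 read 6.73, 6.24 and 6.53 in controls and 6.01, 6.25 and 6.31 in Rnf2delta, with overlap (-0.31 ± 0.13, limma adjusted p = 0.12). Top2a differed by 0.37 ± 0.15 (limma adjusted p = 0.12), with every Rnf2delta array above every control array. Mki67 read 6.09, 6.15 and 6.20 in Rnf2delta, below every control array, a difference of -0.26 ± 0.20 (limma adjusted p = 0.45). The median over the 35 members was 0.14, against 0.05 over all genes, and 0.08 against 0.03 after quantile normalization; over the alternatives the members' median ran from 0.08 to 0.27. These 6 arrays stood apart from the other 24, and the 11 genes of meiotic prophase had a mean log2 level of 5.06 to 6.18 on the Rnf2delta arrays against 3.84 to 4.23 on the control arrays; the part of either in these results was not tested.

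Cenpk was the 1 member whose genotype difference in females changed between E11.5 and E12.5 (1.27 ± 0.25, limma adjusted p = 0.021), where 0.145% of all genes passed in either direction. At E11.5 it read 5.10, 5.32 and 5.13 in control females and 4.89, 5.40 and 5.43 in Rnf2delta females, so the genotypes overlapped. This call held with 8 of 12 arrays left out and not with array weights (0.061 as adjusted p) or in the compared groups alone (0.43). It did not pass without replicate 2 at E11.5 or replicate 1 at E12.5 of the control females, nor without replicate 1 of the Rnf2delta females at either stage. In males 0 members passed the same test, where 0% of all genes passed, and 0 members had an unadjusted p under 0.05, also 0 with array weights. The test of whether the genotype difference at E12.5 differed between sexes passed for 0 members (0.296% of all genes passed; 5 members, or 14.3%, had an unadjusted p under 0.05, against 13% of all genes). Cenpk gave 0.82 ± 0.25 there (limma adjusted p = 0.12), and 1 member passed without replicate 2 of the E12.5 control females or replicate 3 of the E12.5 Rnf2delta females.

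**Figure D5:**
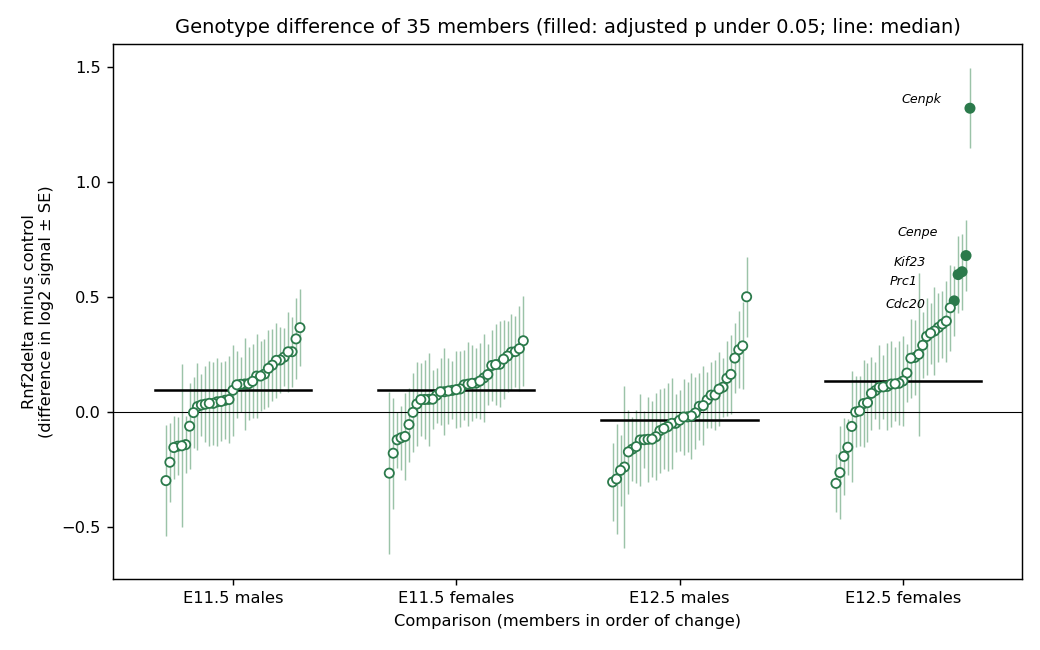
Rnf2delta minus control difference in log2 signal (± SE) of 35 members in 4 comparisons, in order of size within each, with filled points where the limma adjusted p was under 0.05 and a line at the median. The 5 members that pass are all in E12.5 females, with Cenpk at 1.32 above the rest.

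Other genes of the division machinery were read from the same fit. Of 30 other kinetochore and checkpoint genes tested, 7 were lower and 5 higher in control females from E11.5 to E13.5, 8 lower and 1 higher in females than males at E12.5, and 5 lower and 0 higher at E13.5. The shares of all genes were 12.0% lower and 14.2% higher, then 14.7% and 4.31%, then 8.37% and 7.91%. Zw10, a kinetochore protein that recruits dynein, was lower from E11.5 to E13.5 (-1.2 ± 0.21, limma adjusted p = 6.5e-05) and lower in females than males at E13.5 (-0.88 ± 0.21, limma adjusted p = 0.0032). Mis18a, which helps load Cenpa at centromeres, rose in control females by 1.87 ± 0.27 (limma adjusted p = 6.5e-06). In E12.5 females 3 of these genes were higher in Rnf2delta (Cenpn, Cenpc1 and Cenpw) and 0 were lower. There 7.73% of all genes were higher and 2.16% were lower. Of the 3, 0 passed with array weights, where 1.44% of all genes were higher with and without them.

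Of 56 other spindle, chromosome and cytokinesis genes, 19 were lower and 2 higher in control females from E11.5 to E13.5, against 12.0% and 14.2% of all genes as given above. Cks2, a small partner of Cdk1, fell by 1.54 ± 0.18 (limma adjusted p = 4.0e-07), after being higher in females than males at E12.5 (1.63 ± 0.18, limma adjusted p = 4.5e-07). Arhgap11a, Kif18b and Gtse1 were lower at E13.5 by -0.96 ± 0.15, -0.89 ± 0.18 and -0.82 ± 0.17 (each past the threshold in limma). Between genotypes in E12.5 females 4 of the 56 were higher (Ncapg, Nusap1, Ncapg2 and Melk), against 7.73% of all genes. With array weights 0 of them passed, where 1.44% of all genes were higher with and without these weights. Of 18 genes of the anaphase-promoting complex and its regulators, 6 were lower and 1 higher in females than males at E12.5, and 3 lower and 0 higher at E13.5, against the same shares of all genes as for the kinetochore list. In control females 9 of the 18 were lower and 1 higher from E11.5 to E12.5, against 14.2% and 4.56% of all genes. Of the 9, 4 were also lower with array weights, with which 10.6% of all genes passed in either direction. From E11.5 to E13.5, 3 were lower and 4 higher, against 12.0% and 14.2% of all genes. Fbxo5, an inhibitor of that complex, was lower at E13.5 than at E11.5 in control females (-0.85 ± 0.13, limma adjusted p = 1.7e-05).

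Genes of the phases before mitosis were counted in the same way. Of 52 DNA replication and S phase genes, 12 were lower and 5 higher in control females from E11.5 to E12.5, where all genes gave 14.2% and 4.56%. In Rnf2delta females 13 were lower and 6 higher over these days, where all genes gave 11.7% and 6.96%. Of these lower genes 4 and 10 also passed with array weights. With those weights 10.6% and 16.3% of all genes passed in either direction. The share of all genes lower in both fits is not given here. From E11.5 to E13.5 in control females 7 were lower and 8 higher, where all genes gave 12.0% and 14.2%. Between females and males 9 were lower and 0 higher at E12.5, and 3 lower and 2 higher at E13.5. There all genes gave 14.7% and 4.31%, and 8.37% and 7.91%. Pcna, the sliding clamp of replication, was lower at E13.5 by -0.89 ± 0.14 (limma adjusted p = 1.9e-05). Of 6 G1 cyclins and kinases, Ccnd1 (cyclin D1) rose by 2.35 ± 0.16 (limma adjusted p = 6.9e-11), and Ccnd3 and Cdk4 fell by 1.23 ± 0.16 and 0.97 ± 0.13 (limma adjusted p = 1.1e-06 and 2.2e-06) over the same days in control females. In Rnf2delta E12.5 females Ccnd1 and Ccnd2 were higher than in controls by 1.07 ± 0.16 and 1.71 ± 0.29 (limma adjusted p = 7.1e-05 and 0.00038). There 7.73% of all genes were higher. Both genes also passed with array weights, where 1.44% of all genes were higher with and without them. Of the 6 genes, 1 was also higher in Rnf2delta males at E11.5 and 1 at E12.5, with array weights as well. There 0.718% and 0.962% of all genes passed in either direction, and 2.27% and 1.88% with array weights. In E11.5 females 0 of the 6 passed.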

How the data were processed

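The authors deposited log2 signals of 34760 probe sets on 30 Affymetrix arrays, with array medians of 2.52 to 2.66; how they were normalized is not given in the sources used here. Per the submitters' processing notes, the tools included R 2.15 and affy 1.36. The background correction, probe summary and genome build were not given either. Total RNA of 500 sorted cells a sample was amplified by whole-transcriptome PCR before labelling, per the labels' protocols. The number of arrays limits the precision. Levels are not compared between genes.

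Probe sets were named from the platform annotation, updated through Entrez identifiers with RefSeq (GRCm38.p6): 21640 had 1 symbol, 1321 several and 11799 none listed. The probe set with the highest mean stood for a gene, and 15180 of 19937 genes, those above the 40th percentile of an array on 3 or more arrays, were tested. All 30 arrays entered a single model with 1 mean per group (limma 3.58.1 in R 4.3.3), with equal weights and 20 residual degrees of freedom. Contrasts were two-sided, with Benjamini-Hochberg adjustment over the 15180 genes and a threshold of 0.05; "passed", "rose", "fell" and counts refer to it. No test was made over the members as a set. The fit was tested on simulated data.

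The alternatives were array weights, a fit of only the groups compared, quantile normalization, the mean of all probe sets of a gene, no filter, a trended and robust prior, a replicate block, each array left out, leaving out all 6 arrays of E12.5 females and, chosen after seeing the data, a fit without replicate 3 of both E12.5 male groups. Same-numbered arrays of a pair of groups deviated together, with every correlation over 0.1, only between genotypes in E11.5 males (0.160, 0.124 and 0.104). In E11.5 males the replicate number was therefore taken to pair the arrays, from the data and not from the labels. Between genotypes at E12.5 the correlations were 0.184, 0.096 and 0.293 in males and 0.093, 0.059 and 0.079 in females. Not all of these passed 0.1, and whether those arrays were paired was not tested. Shares of all genes were counted for the main fit, array weights and the compared groups only. In the other alternatives a changed count of members therefore cannot be read as particular to the members.

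The members, the lists of other genes and the naming rule were chosen with earlier results of these data known. Per comparison, up to 6 members with the smallest p are given with values on every array where they passed, with Cdk1, Mki67 and Top2a described besides, and up to 4 genes of each other list. Promoter windows came from RefSeq (GRCm38.p6); those of 7 members were not used here. No scan batch was analysed here.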

Additional observations from a re-analysis of the deposited data

Results flagged for a closer look

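Cenpk was set apart because its genotype difference in females was tested to differ between stages: the Rnf2delta minus control difference was 1.27 log2 units larger at E12.5 than at E11.5 (limma adjusted p = 0.021, 0.0022 to 0.43 over the alternatives). All 3 E12.5 Rnf2delta female arrays lay above all 3 control arrays, and the genotypes overlapped at E11.5.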

How the results depend on the processing

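No member's call changed direction under any alternative run. Over the 19 contrasts with equal weights there were 78 member calls; 57 were kept with array weights, 40 with only the compared groups, 58 after quantile normalization, 77 with the mean of all probe sets, 76 without the filter and 77 with a trended and robust prior. Array weights gave 1 member called between genotypes in E12.5 females, 7 in control females from E11.5 to E12.5, 7 from E12.5 to E13.5, 2 in control males from E11.5 to E12.5, 5 from E11.5 to E13.5, 1 in Rnf2delta males, 13 between sexes at E13.5, 2 for the sex difference of the stage change and 0 for the stage difference of the female genotype effect. The compared groups alone gave 0, 4, 6, 1, 5 and 0 for the first 5 and the last of these contrasts, 4 in Rnf2delta females over the stages, 10 between sexes at E12.5, 10 at E13.5 and 1 for the sex difference of the stage change. Quantile normalization gave 1 and 2 in control males from E11.5 to E12.5 and to E13.5, and 12 between sexes at E12.5. Without the 6 E12.5 female arrays, these counts in control males were 1 and 2, with 1 in Rnf2delta males, 11 between sexes at E13.5 and 1 for the sex difference of the stage change; the cause of these changes was not tested beyond the fewer arrays in such fits.

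With each array left out in turn, the counts ran from 3 to 7 between genotypes in E12.5 females, 7 to 14, 6 to 12 and 4 to 8 in control females (E11.5 to E12.5, E12.5 to E13.5 and E11.5 to E13.5), 4 to 13 in Rnf2delta females, 14 to 22 and 1 to 6 between sexes at E12.5 and E13.5, 0 to 1 for the stage difference of the female genotype effect and 0 to 1 for the sex difference of the genotype effect. They stayed at 0 in the other genotype contrasts, in the single steps of control and Rnf2delta males, between sexes at E11.5 and for the remaining differences, and at 1 in control males from E11.5 to E13.5. The replicate block kept 76 of the 78 calls: Cdc20 between genotypes in E12.5 females and Kif2c from E11.5 to E13.5 in control females no longer passed. In E11.5 males, where the replicate number was taken to pair the arrays, 0 members passed with the block and 0 without it. Without replicate 3 of both E12.5 male groups, 18 of 19 calls between sexes at E12.5 were kept. Groups of 3 arrays, and for Cdc25b and Cdc25c signals near the array medians, limit what can be detected.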
